A study of Drosophila melanogaster with 27 samples.

Results

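Of 20658 chromatin windows listed for the histone mark H3K27me3 in fly larval brains, 7850 (38.0%) shared no base pair with any window listed for the active marks H3K4me3 or H3K27ac, and none with a peak of the transcription factor Fruitless C (FruC). These windows were chosen by their positions alone, with all listed rows of the 3 mark tables and the peaks of all 4 FruC lists (the Myc epitope on FruC::Myc and the FruCOM antibody, 2 replicates each). They came from CUT&RUN, in which an antibody tethers a nuclease to its target and the released DNA is sequenced. Control brains were brat11/Df(2L)Exel8040; fruC::myc and mutant brains brat11/Df(2L)Exel8040; fruC-DelC/fruAj96U3, both dissected from larvae of the 3rd instar cultured for about 5 to 6 days. Controls and mutants alike were therefore brat-null, a background in which type II neuroblasts, the neural stem cells of the brain, accumulate, and each histone sample pooled 25 whole brains. All peak lists used below came from the control genotype.

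A listed window is a stretch that diffReps reported when it compared fruC-null with control brains in sliding windows of 500 bp. The paper used this comparison to find regions whose mark level changed. The list is therefore not a map of where the mark lies, and a stretch with no listed H3K4me3 or H3K27ac window may still carry that mark. No column gives the signal of a sample, so neither levels nor their replicate error can be stated, and the depth is unknown. Windows are not replicates, and the intervals below are 95% Wilson intervals that cover counting error only. Direction and size of the difference between genotypes were not used.

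H3K27me3 is laid down by Polycomb repressive complex 2 (PRC2), of which Su(z)12 and Caf-1 are subunits, and is known for holding developmental genes silent outside the cells that use them. Its best-known targets in flies are the Hox genes, which give each body segment its identity, and other genes for homeodomain, GATA, T-box and zinc finger transcription factors. In flies PRC2 is brought to DNA by Polycomb response elements, at which sequence-specific proteins such as Trl (GAGA factor) and Pho bind. H3K9me3 is the mark of constitutive heterochromatin, around the centromeres and on chromosomes 4 and Y.

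The loci behind the results can be read in a few stretches of 300 bases. They are printed 5′ to 3′ on the plus strand from the RefSeq chromosome sequences of the assembly that BDGP6.32 uses, and none of them holds an annotated exon. Capitals mark the words GAGAG (known for Trl), GCCAT (Pho) and GGGTG (Spps) and their complements on the other strand. For the longest window and for the longest window of 4 long domains, the stretch with the most of these words is shown, a choice made after the values were seen. The first 3 lie in loci rich in H3K9me3 peaks, and the next pair in loci with none. The last surrounds the summit of a Su(z)12 peak, a PRC2 subunit otherwise almost without peaks in these windows.
Ubx intron, chr3R:16687926-16688225, in the longest window (12900 bp, 14 H3K9me3 peaks): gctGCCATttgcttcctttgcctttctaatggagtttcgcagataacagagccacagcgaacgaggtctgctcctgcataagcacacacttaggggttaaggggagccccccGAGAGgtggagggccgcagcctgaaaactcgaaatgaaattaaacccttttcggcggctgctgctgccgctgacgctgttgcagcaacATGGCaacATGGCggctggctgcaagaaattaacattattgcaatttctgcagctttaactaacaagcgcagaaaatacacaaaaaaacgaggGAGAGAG
toe intron, chr3L:12424446-12424745, in a window of 2600 bp with 4 H3K9me3 peaks: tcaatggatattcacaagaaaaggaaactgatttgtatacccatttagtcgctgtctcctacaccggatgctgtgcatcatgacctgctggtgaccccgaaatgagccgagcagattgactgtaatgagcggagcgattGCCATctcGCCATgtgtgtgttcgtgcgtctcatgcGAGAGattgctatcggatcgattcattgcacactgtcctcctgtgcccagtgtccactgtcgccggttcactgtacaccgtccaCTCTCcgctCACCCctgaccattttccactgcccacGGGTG
between GATAe and pnr, chr3R:16020733-16021032, in a window of 4650 bp with 5 H3K9me3 peaks: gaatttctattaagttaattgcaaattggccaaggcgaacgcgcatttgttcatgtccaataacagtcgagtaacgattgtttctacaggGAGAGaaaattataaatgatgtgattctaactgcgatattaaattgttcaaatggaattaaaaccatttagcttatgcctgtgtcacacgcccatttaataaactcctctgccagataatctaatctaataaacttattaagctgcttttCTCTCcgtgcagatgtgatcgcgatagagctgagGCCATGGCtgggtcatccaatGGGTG
RunxB intron, chrX:20542759-20543058, in a window of 3850 bp with 0 H3K9me3 peaks: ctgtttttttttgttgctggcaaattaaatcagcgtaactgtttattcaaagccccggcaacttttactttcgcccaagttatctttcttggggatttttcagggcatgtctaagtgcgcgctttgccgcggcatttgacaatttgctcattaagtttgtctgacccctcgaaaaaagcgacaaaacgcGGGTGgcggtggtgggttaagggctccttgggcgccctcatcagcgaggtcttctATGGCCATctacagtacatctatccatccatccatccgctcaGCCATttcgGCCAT
near Hsp60C and DIP-theta, chr2L:5661070-5661369, in a window of 2400 bp with 0 H3K9me3 peaks: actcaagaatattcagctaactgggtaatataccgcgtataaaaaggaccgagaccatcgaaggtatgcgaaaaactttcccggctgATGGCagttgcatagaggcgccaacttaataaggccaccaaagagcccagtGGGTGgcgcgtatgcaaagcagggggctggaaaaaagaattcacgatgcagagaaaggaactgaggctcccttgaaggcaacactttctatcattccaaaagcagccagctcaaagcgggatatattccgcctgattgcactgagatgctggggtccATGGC
on Y, chrY:226520-226819, in a window of 900 bp with 0 H3K9me3 peaks, around a Su(z)12 summit: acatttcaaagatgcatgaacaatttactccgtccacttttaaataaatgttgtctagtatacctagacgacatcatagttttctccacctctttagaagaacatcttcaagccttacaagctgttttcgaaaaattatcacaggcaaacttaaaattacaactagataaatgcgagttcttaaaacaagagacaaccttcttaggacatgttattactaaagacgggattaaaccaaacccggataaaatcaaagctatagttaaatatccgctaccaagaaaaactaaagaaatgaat
The Ubx and toe stretches hold 6 matches to the 3 words each, the stretch beside GATAe 5, RunxB 5, the stretch near Hsp60C 3 and the Y stretch 0. The nearest protein-coding gene to the Y stretch, PRY, is 34500 bp away, and the Su(z)12 peak there had a fold enrichment of 5.48 and a −log10 Q-value of 6.11 in replicate 1 only, beside a Caf-1 peak of the same replicate. Whether the Y stretch has near-identical copies elsewhere was not checked. The words are common, as the shares over all windows below show, and a match is not a binding site.

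The windows were short. Their median length was 700 bp (quartiles 550 and 950 bp, longest 12900 bp), against 900 bp for the 12808 other listed windows. The smallest possible window of 500 bp made up 19.0% of them and 11.1% of the others. In all they covered 7081 kb, and 71 were 4 kb or longer. Windows without active marks alone numbered 8230, so the FruC peaks removed a further 380. The edge of the rule was soft: 147 members lay within 50 bp of an active-mark window or FruC peak, and 142 windows left out shared 50 bp or less with what excluded them. The median member lay 2651 bp from the nearest active-mark window and 6208 bp from the nearest FruC peak.

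Every chromosome but the mitochondrial genome (0 of 10 listed windows) held some. The share of listed windows that were members was 44.6% on X, 40.0% on 2L, 38.7% on 3R, 37.5% on 3L and 32.2% on 2R. It was lower on the small heterochromatic chromosomes, with 32 of 164 windows (19.5%) on chromosome 4 and 48 of 188 (25.5%) on Y.

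They lay away from gene starts. The window centre fell in a promoter (from 1000 bp before a start site to 100 bp after it) for 713 of 7850 (9.08%, interval 8.47 to 9.74). The share was 13.6% (12.8 to 14.4) for windows with an active-mark window but no FruC peak and 39.5% (38.2 to 40.8) for windows with a FruC peak. The median distance from the centre to a start site was 4366 bp, 2726 bp and 593 bp in these 3 groups. Introns held 34.2% and intergenic sequence 33.0% of the members, both above the other groups by more than counting error. The active marks are marks of promoters and enhancers, so the rule itself favours windows far from starts. Annotated transposable elements shared base pairs with 8.61% of members and 8.29% of all other listed windows, intervals that overlap.

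**Figure D1:**
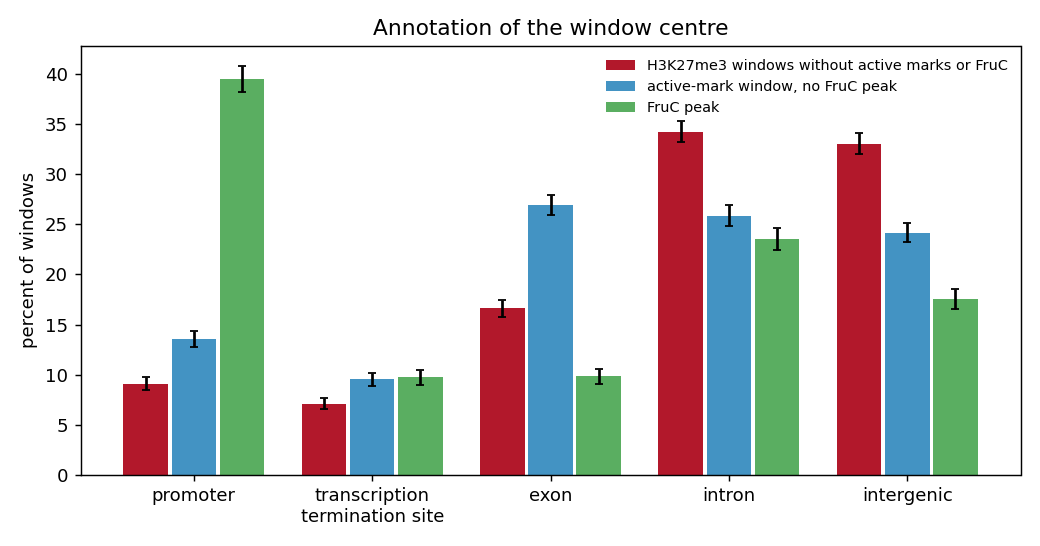
Percent of windows (y axis) whose centre falls in each annotation class (x axis), for windows without active marks or FruC, windows with an active-mark window but no FruC peak, and windows with a FruC peak. Bars are shares and error bars 95% Wilson intervals. The members have the lowest promoter share (9.08%) and the highest intron (34.2%) and intergenic (33.0%) shares.

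Of 13968 protein-coding genes, 2122 (15.2%) had at least 1 bp of gene body in such a window, and on average 4.1% of a gene body was covered. Long genes were reached more often: 979 of 1985 genes of 10 kb or more (49.3%) and 1143 of 11983 shorter ones (9.54%). The counts of the gene lists below are therefore to be read against 49.3% for long genes and 9.54% for shorter ones, with the median gene length of each list.

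All 8 Hox genes held member windows. Ubx, which specifies the third thoracic segment, had 22 windows that covered 37.5 kb, or 48.2% of its 77804 bp (3R, 16656623 to 16734426). Antp, which specifies the second, had 19 windows over 32.6 kb (31.6%). The share of the gene body was 54.5% for lab, 52.9% for Dfd, 41.8% for abd-A, 33.3% for Scr, 23.4% for Abd-B and 5.69% for pb. These genes act from head (lab, pb, Dfd, Scr) to abdomen (abd-A, Abd-B), and the shares did not follow that order. Listed windows that did have an active-mark window or FruC peak covered a further share of each gene, from 23.3% of Dfd to 90.2% of pb. The 4630 members in protein-coding genes included 70 in Hox genes, and the median Hox gene was 30563 bp long.

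Among 59 homeobox genes outside the Hox complexes, 38 (64.4%) held member windows, with a mean of 21.9% of the gene body (median gene length 11949 bp). The early dorsal patterning gene zen was covered whole (100% of 1331 bp). Among long homeobox genes unc-4, a motor and interneuron factor, reached 69.0%, al, an appendage factor, 63.7%, the posterior gene cad 60.9%, lbl, which acts in muscle and heart, 59.6%, and the Iroquois gene caup 57.1%. Of 47 other patterning and lineage regulators (median length 7379 bp), 25 (53.2%) held members. The covered share was 80.3% for the Wnt ligand gene wg, 66.6% for the Runx factor lz, 63.4% for the zinc finger gene disco-r, 61.7% for Wnt10 and 58.8% for the T-box gene H15. These lists were also heavily covered by the other listed windows (means of 58.7% and 56.7% of the gene body). Of all their listed bp, the members held 30.1% and 30.7%, against 38.3% for the Hox genes, 30.8% for all protein-coding genes of 10 kb or more, 17.8% for those under 10 kb and 26.2% for all.

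Of 14 genes of the neuroblast self-renewal list (median length 17446 bp) 4 held members (28.6%, against 15.2% of all protein-coding genes and 49.3% of those of 10 kb or more). They were pnt, the ETS factor of type II neuroblasts (20.2%), pros (4.61%), erm (3.23%) and numb (2.06%). The list also holds genes that act against self-renewal. In the paper erm is the master regulator of commitment in the progeny, where numb and brat end Notch activity. The stem cell factors dpn, wor, ase, klu, tll, btd and grh, the polarity genes mira and insc, and brat, which is mutant in all these brains, held 0 member bp, although all 14 genes of the list had other listed H3K27me3 windows. Members made up 9.65% of the listed bp of this list, against 26.2% over all protein-coding genes. The rule leaves out every window with an active-mark window or a FruC peak, so genes that carry these could hold few members. Of the 8 proneural bHLH genes, which start neural fates (median length 1160 bp), 0 held members, and 5 held other windows. In the Enhancer of split complex, the Notch target genes (median length 968 bp), 1 of 12 did (E(spl)m4-BFM, 82.9%). Of 16 Notch pathway genes (median length 8854 bp) the ligand gene Ser was the only one, with 15 windows over 52.4% of its body, while the receptor gene N and the ligand gene Delta had 0 member windows and 4 other windows each.

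Among genes of differentiated cells, members touched 22 of 39 genes of neuronal excitability and synapses (56.4%), with a mean of 3.8% of the gene body. These genes are long (median 36312 bp), and both values lie near those of all genes of 10 kb or more (49.3% and 4.99%). GluRIIB, a glutamate receptor subunit, had 31.3%, the adhesion gene Nlg2 18.4%, the potassium channel gene Shaw 16.9%, Nmdar1 12.8% and nAChRbeta1 11.3%. Of 14 genes of neurotransmitter synthesis and transport (median length 7381 bp) 7 held members, led by Trhn, the neuronal tryptophan hydroxylase of serotonin synthesis, with 82.1%, and followed by Vmat (19.9%), Hdc (12.4%), DAT (8.24%) and VAChT (4.84%). Of 18 muscle genes (median length 4928 bp) 8 did (44.4%; Act79B 45.4%, sls 10.5%, Act57B 9.54%, Mef2 8.6%, Mhc 7.88%). Their mean covered share of 5.3% lay near the 4.1% of all protein-coding genes. The members held 52.1% of the muscle list's listed bp. Of these 17.6 kb, the long genes sls (75931 bp) and Mef2 (45363 bp) held 7.95 and 3.9 kb. In the fat body and hemocyte list (median length 2723 bp) 3 of 12 did (Fbp1 78.4%, Lsp1beta 21.3%, Hml 11.5%). Of 9 glial genes (median length 4145 bp) 0 held members, and 6 held other listed windows.

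Clustered gene families for taste, smell and cuticle were touched gene by gene. The median gene of each of these lists, from 406 bp for antimicrobial peptides to 2102 bp for cytochrome P450, was short, so the share of 9.54% for genes under 10 kb is the nearer one. Members fell in 15 of 60 ionotropic receptor genes (25.0%; Ir7a and Ir20a 100% each, Ir67a 76.9%, Ir52a 64.9%, Ir64a 63.2%), 10 of 51 odorant-binding protein genes (19.6%; Obp8a 78.9%, Obp19b 66.5%), 7 of 59 odorant receptor genes (11.9%; Or98b 79.8%, Or94b 59.3%) and 8 of 60 gustatory receptor genes (13.3%; Gr68a 59.5%, Gr21a 51.4%). They fell in 30 of 120 cuticle protein genes (25.0%; Ccp84Af and Cpr78E 100% each), 16 of 85 cytochrome P450 genes (18.8%; Cyp4c3 82.7%, Cyp4d21 80.9%) and 1 of 20 antimicrobial peptide genes (AttD, 73.3%). Of the housekeeping lists, 2 of 91 cytoplasmic ribosomal protein genes (2.2%) and 2 of 48 proteasome genes (4.17%) held members, below that 9.54%. Of 111 replication-dependent histone genes 0 did, and their bodies lay in other listed windows to a mean of 99.4%. Members fell in 13 of 290 tRNA genes (4.48%, or 32 genes with 1000 bp on both sides), whose median length is 73 bp. Their mean covered share of 3.93% was near the 3.96% of protein-coding genes under 10 kb, so the tRNA list was not depleted. The pair of ribosomal genes were RpL10Aa and RpL22-like, and the pair of proteasome genes Prosalpha4T2 and Rpn12R, which are variants of genes for core subunits. Counts for the histone, tRNA and clustered receptor genes are uncertain, since reads from near-identical copies may be placed on either.

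**Figure D2:**
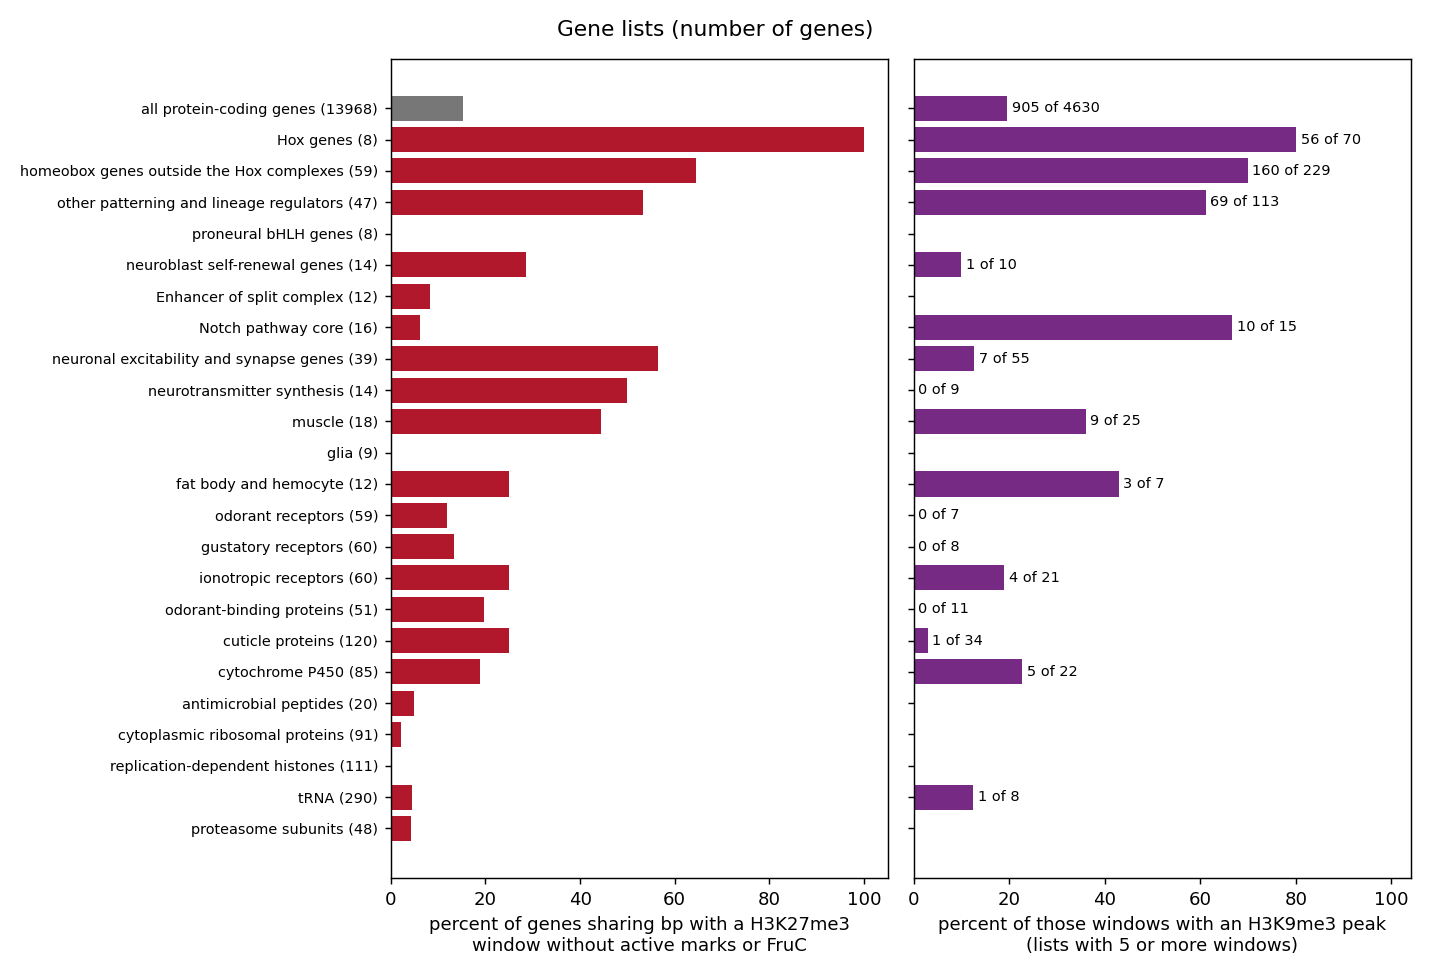
Left, percent of the genes of each list (number in brackets) that share at least 1 bp with an H3K27me3 window without active marks or FruC; grey, all protein-coding genes. Right, percent of those windows with an H3K9me3 peak, for lists with at least 5 such windows; the bars stand at 80.0% for Hox genes (56 of 70) and 19.5% for all protein-coding genes (905 of 4630).

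Some genes were covered almost whole. Among genes of 2000 bp or more the largest shares were 100% for CG14892 and CG32855, 97.8% for Eo, 96.2% for CG15548, 92.8% for FarO, 92.1% for CG8100, 91.7% for CG7675, 91.4% for CapaR and 90.2% for CG13251. CapaR encodes the receptor of Capa neuropeptides, which act on the renal tubules. The next 6 were CG5265 (89.9%), CG10345 (89.1%), CG5966 (88.3%), CG9316 (87.2%), NPF (86.9%), the gene of neuropeptide F, and CG4704 (86.4%). CG14892, CG10345 and NPF are neighbours and shared a single domain of 13 windows on 3R. The most member bp per gene were held by Myo81F (63.9 kb in 90 windows, but only 3.25% of a gene of 1965857 bp), the adhesion gene Con (47.1 kb, 33.1%), Ubx, Antp, the splicing regulator mbl (25.6 kb, 15.8%), CG9380 (24.6 kb), the glucose transporter gene Glut1 (24.5 kb, 30.7%), Cph (23.4 kb), Pzl (21.9 kb) and CG32719 (21.7 kb, 55.3%).

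Joined over gaps of up to 3000 bp, the 7850 windows formed 3902 domains, of which 2480 were single windows. At the other end 83 domains had 10 windows or more and held 1249 of them. The longest was 47900 bp on 3L with 31 windows around eyg and toe, Pax factors of eye and salivary gland. The second, 46750 bp on 2R with 37 windows, lay at en and inv, the paired homeobox genes of the posterior compartment. The third (44700 bp, 30 windows) lay at ara and caup of the Iroquois complex. Then came the POU gene pdm2 with Nepl7 and Ref2 (43800 bp, 34 windows), H15 (43750 bp, 28 windows), the GATA genes srp, GATAe and pnr (40350 bp, 22 windows) and the FGF receptor gene htl with bard (39250 bp, 22 windows). RunxB with CG42580 (38050 bp, 18 windows), the homeotic zinc finger gene tsh (35550 bp, 28 windows) and DIP-theta with Hsp60C (35450 bp, 19 windows) closed the first 10. Members filled between 48.4% (htl) and 72.1% (H15) of these spans. The gaps were not free of FruC: they held between 1 (htl) and 13 (eyg and toe) FruC peaks and up to 6 other listed windows. Su(z)12 peaks of replicates 1 and 2 also lay in gaps, 2 and 3 at eyg and toe and 1 and 2 at ara and caup. There were 1 and 1 each at H15, at srp with GATAe and pnr, at tsh and at DIP-theta. The gaps at en and inv, pdm2, htl and RunxB held 0 Su(z)12 peaks.

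After the Ubx window of 12900 bp came 8750 bp at 9209 bp from wg, 8450 bp at Glut3, 8350 bp within pnt, 8250 bp within lbl, 8250 bp at 22734 bp from grim, 8000 bp at 18978 bp from B-H1, 7500 bp at 14907 bp from sala, 7300 bp at 2875 bp from CG5888 and 7150 bp over zen and 59 bp of bcd. Glut3 lies between Ubx and abd-A, in the bithorax complex of Hox genes.

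The H3K9me3 list took no part in the rule. It holds 17154 peaks in 1 list for 2 replicates, so no replicate spread can be given. A peak shared base pairs with 1884 of 7850 members (24.0%, 23.1 to 25.0) and with 29.0% of all other listed windows (28.3 to 29.8). Among members of exactly 500 bp on the 5 large arms the share was 19.4% (17.5 to 21.5), against 12.2% of consecutive 500 bp pieces of those arms. The peaks in members had a median fold enrichment of 4.39 and a median −log10 Q-value of 9.02, against 4.21 and 9.8 in all other listed windows and 4.19 and 8.99 over the whole list. Strong peaks were rarer: with a −log10 Q-value above 20 only 4.54% of members (others 10.8%) held a peak. Above 100, the level at which the study masked heterochromatin, 0 of 7850 did, which allows a share of up to 0.0382% by a limit of 3 counts (Wilson upper limit 0.0489%), against 40 of the 12808 others. By chromosome the share ran from 19.0% on 3L to 27.6% on 3R among the large arms and reached 31.2% (10 of 32) on chromosome 4 and 72.9% (35 of 48) on Y.

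The H3K9me3 peaks gathered in long domains. A peak lay in 17.8% (16.4 to 19.4) of windows that stood alone, 17.3% of those in domains of 2 to 4 windows, 33.5% in domains of 5 to 9, 36.8% in domains of 10 to 19 and 66.1% (60.2 to 71.7) in domains of 20 or more. Longer windows also held a peak more often (19.7% at 500 bp, 46.3% at 2000 bp or more). Within windows under 1000 bp the share was 16.4% (14.9 to 18.0) for those alone and 39.8% (36.6 to 43.2) in domains of 10 or more. The other listed windows, joined in the same way, ran from 23.0% for those alone to 50.5% (46.5 to 54.5) in domains of 20 or more, so the gradient was not particular to the members.

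**Figure D3:**
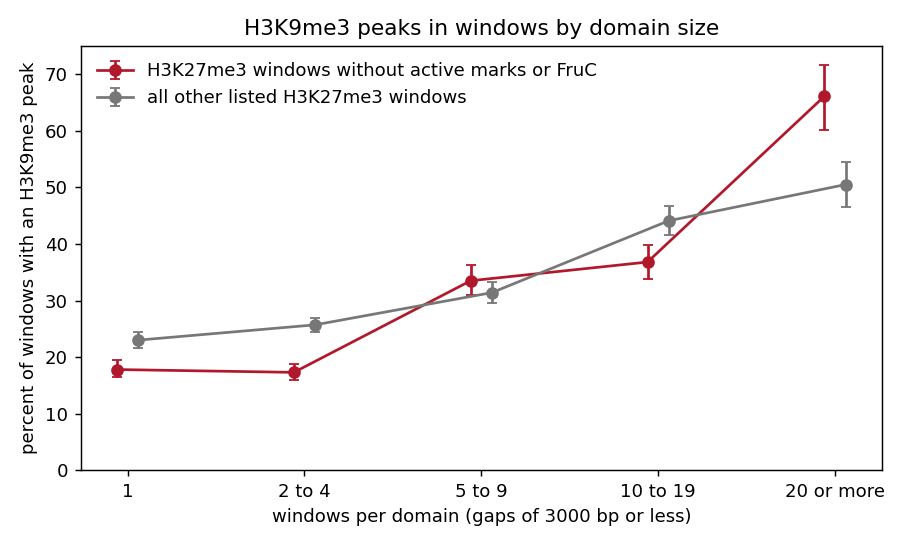
Percent of windows with an H3K9me3 peak (y axis) by the number of windows in the domain (x axis), for windows without active marks or FruC and for all other listed H3K27me3 windows, each joined over gaps of 3000 bp or less. Points are shares and bars 95% Wilson intervals; the members go from 17.8% to 66.1% and the others from 23.0% to 50.5%.

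The 83 domains of 10 or more windows differed widely among themselves. In 35 of them at least 50% of the windows held an H3K9me3 peak, in 22 none did, and 27 in all had a peak in 10% of their windows or fewer, leaving 21 between. Domains rich in these peaks lay at C15 (11 of 11 windows), at drm (10 of 11), at srp, GATAe and pnr (19 of 22), in Ubx (11 of 13), at en and inv (31 of 37), at pdm2 (25 of 34), at ara and caup (22 of 30), at H15 (20 of 28), at eyg and toe (22 of 31), at tsh (18 of 28) and at ems (10 of 14). The other domains of this kind lay at CG11629 (13 of 14), ND-20L (14 of 16), Art6 with Art9 (9 of 12), Lim1 (11 of 15), unc-4 and OdsH (12 of 18 and 10 of 16), kni (8 of 12), Cph (8 of 12), salm (9 of 14), CG9380 (10 of 16), knrl (11 of 18), Ser (10 of 17), nompC (6 of 11) and disco-r (8 of 16), and 10 of the 35 shared no bp with a protein-coding gene. The list thus holds homeobox and other transcription factor genes beside a Notch ligand (Ser), a mechanosensory channel (nompC) and genes of other or unnamed function. Domains with no such peak lay at DIP-theta, DIP-zeta, DIP-delta, RunxB, Glut1, CG32719 (a pair of domains), Sb, upd3, jhamt, LpR1 with LpR2, NPF with CG14892, Wdr62, CG9582, CG15167 with CG42752, CG12126 with CG30371, mthl6 with CG43292, Ass with CG15177, CG4704 and CG1677 with CG15035, and 2 of the 22 shared no bp with a protein-coding gene.

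**Figure D4:**
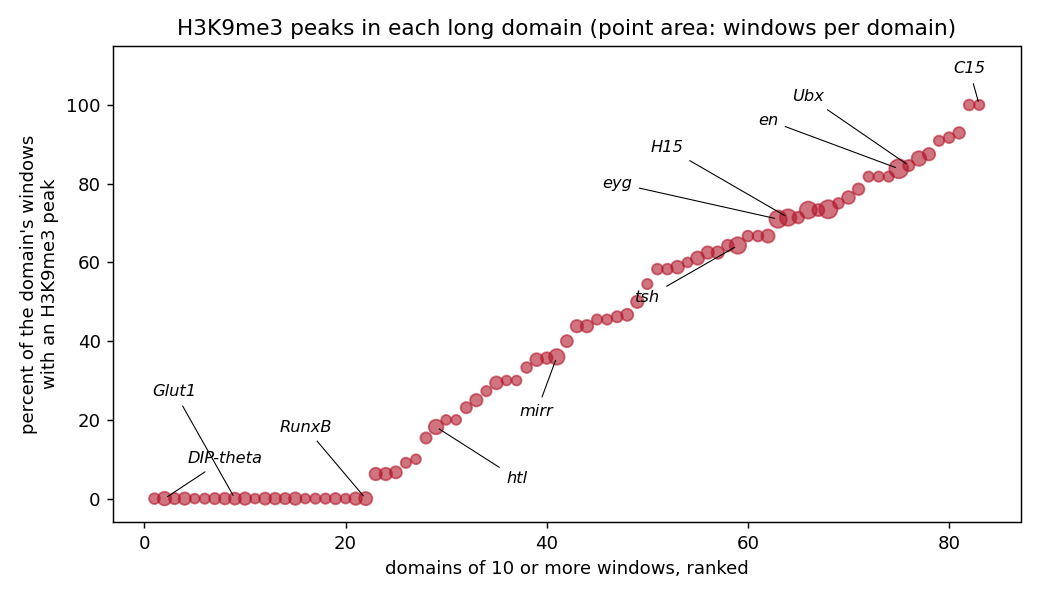
Each point is 1 of the 83 domains of 10 or more windows, ranked by the percent of its windows with an H3K9me3 peak (y axis), with area in proportion to its number of windows. Named domains include C15 (100%), Ubx, en, H15, eyg and tsh at the upper end, mirr (36.0%) and htl (18.2%) between, and RunxB, Glut1 and DIP-theta at 0%.

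By gene, of 68 protein-coding genes with at least 10 member windows, 28 had no H3K9me3 peak in any, 27 had a peak in 50% of them or more, and 13 lay between. The 28 were Con and mbl (0 of 27 windows each), Glut1 (0 of 25), luna (0 of 21), CG45263 (0 of 18), bru3 (0 of 17), CG1677, CG32719 and DIP-theta (0 of 15 each), the receptor phosphatase gene Lar and the cadherin gene ds (0 of 14 each), CG46244, the adhesion gene Fas3 and RunxB (0 of 13 each), Sb and the muscle gene Zasp52 (0 of 12 each), and CG34347, the dystrophin gene Dys, RYa-R, bab2, dsx and heph (0 of 11 each). CG42747, DIP-zeta, ec, klg, mwh and sowah had 0 of 10 each. The 27 included trh (10 of 10), MSAmiP (11 of 11), the POU genes pdm2 (14 of 15) and nub (13 of 20), CG17684 (11 of 12), inv (22 of 26), unc-4 and CG46458 (8 of 10 each), Antp (15 of 19), Ubx (16 of 22) and ss (8 of 11). Also among them were H15 (7 of 10), lov (9 of 13), Ref2 (17 of 25), Ser (10 of 15), otp and OdsH (8 of 12 each), CG5888 (9 of 14), lovit (12 of 19), Cph (12 of 20), Sytbeta (6 of 10), CG9380 (15 of 27), disco-r (8 of 15) and Lim1 (11 of 21). Myo81F (73 of 90), Pzl (23 of 32) and DIP-lambda (18 of 24) complete the 27. These genes are very long and lie at the base of a chromosome arm, as do CG17684 (396036 bp) and lovit (434041 bp). Transcription factor genes stood on both sides (luna, RunxB, dsx and bab2 with none), and RunxA had 2 of 19. CG46244 overlaps Lar and CG46458 overlaps Antp, so these pairs share windows.

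By list, an H3K9me3 peak lay in 56 of 70 windows in Hox genes (80.0%), 160 of 229 in other homeobox genes (69.9%) and 69 of 113 in the other patterning genes (61.1%), against 905 of 4630 (19.5%) in protein-coding genes at large. It lay in 7 of 55 windows in neuronal excitability and synapse genes, 0 of 9 in neurotransmitter genes, 1 of 34 in cuticle protein genes, 9 of 25 in muscle genes, 3 of 7 in fat body and hemocyte genes, 5 of 22 in cytochrome P450 genes, 4 of 21 in ionotropic receptor genes, and 0 of 7, 0 of 8 and 0 of 11 in the odorant receptor, gustatory receptor and odorant-binding protein genes. In the other listed windows of the Hox, homeobox and patterning lists the share was higher still, at 93.2%, 89.3% and 84.2%. The peaks in Hox windows were above the average of members in strength (median fold enrichment 5.27, median −log10 Q-value 12.3, highest 38.3). Neither the specificity of the H3K9me3 antibody nor the H3K27me3 level at these sites was tested here.

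Of the 4 chromatin and DNA-binding proteins, hardly any left a peak in these windows. A peak of Su(z)12, Caf-1, Trl or Su(H), the DNA-binding factor of Notch signalling, shared base pairs with 13 of 7850 members (0.166%, 0.0968 to 0.283). The share was 0.943% (0.744 to 1.19) of windows with an active-mark window but no FruC peak and 47.5% of windows with a FruC peak. Su(z)12 peaks lay in 4 members in replicate 1 and 0 in replicate 2, Caf-1 in 6 and 3, Trl in 1 and 1, and Su(H) in 1 and 0. In 0 of 7850 members did both replicates of a protein have a peak. The rule itself brings this about to a large degree, since 93.5% to 99.4% of the peaks in each of these 8 lists shared base pairs with a FruC peak. In all listed windows together, 48 Su(z)12 peaks of replicate 1 and 7 of replicate 2 lay off FruC peaks. The median member lay 22.0 kb from the nearest Su(z)12 peak of replicate 1 and 29.6 kb from that of replicate 2. The distances were 15.9 and 24.8 kb for windows with an active-mark window but no FruC peak, and 3.89 and 9.35 kb for windows with a FruC peak. The gaps of some of the longest domains did hold Su(z)12 peaks, as given above.

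**Figure D5:**
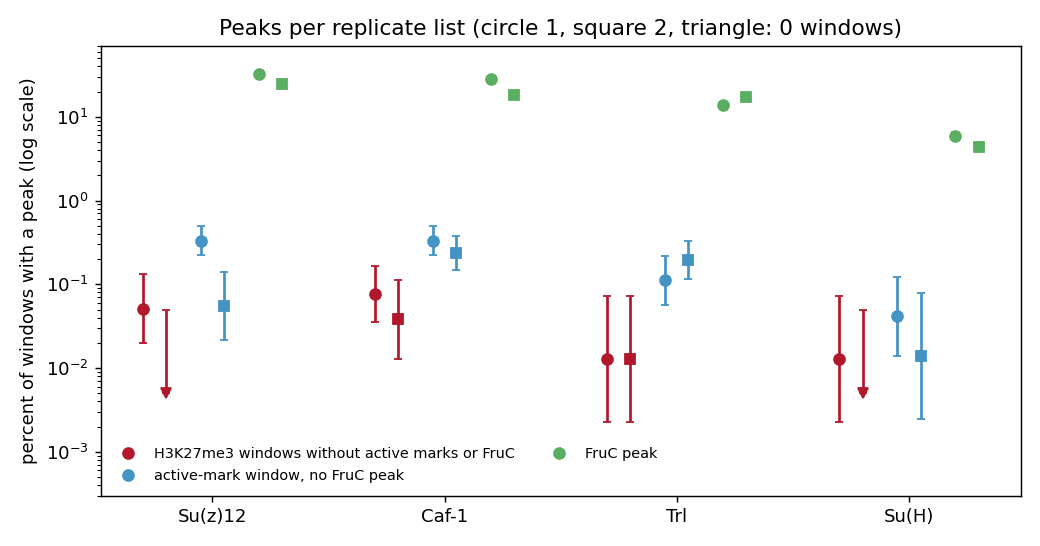
Percent of windows (log axis) with a peak of each protein, in each replicate list (circle, replicate 1; square, replicate 2), for the 3 groups of H3K27me3 windows. Bars are 95% Wilson intervals, and a triangle stands for 0 windows, placed by convention with the bar up to its limit; members lie at or below 0.0764% in each list and windows with a FruC peak between 4.38% and 32.8%.

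Among the 13 windows, Y held 4, X 3, 3L and 2R 2 each and 2L and 3R 1 each. The 2L window shared bp with an annotated HMS-Beagle element and 1 of those on 2R with a Dm88 element. Reads from repeated sequence may be placed on any copy, so these peaks and those on Y are uncertain. Of the 4 Su(z)12 windows, those at DIP-delta (5 bp shared) and Gfrl (4 bp shared) were touched only by the flank of a peak whose summit lay outside. Of the pair with the summit inside, 1 lay on 2R, outside genes, and also held a Caf-1 peak of replicate 2. A window within Ten-a and Muc11A on X held Trl peaks of replicate 2 (fold enrichment 5.07 and 5.62) and a Su(H) peak of replicate 1 (4.91). The highest −log10 Q-value among all these peaks was 9.17, for Caf-1 in replicate 2 on X.

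Base composition lay between that of the arms and that of the other listed windows. The median GC content was 43.8% (quartiles 40.2 and 47.6), against 41.8% for 264575 consecutive 500 bp pieces of the 5 large arms, 45.9% for all other listed windows and 47.4% for windows with an active-mark window but no FruC peak. The GAGAG word lay in the central 500 bp of 45.4% of members (44.3 to 46.5), against 44.9% of the pieces of the arms and 57.3% (56.0 to 58.6) of windows with a FruC peak. GGGTG lay in 48.1% of members and 44.5% of the pieces, GCCAT in 73.2% and 65.4%, the Su(H) word TGGGAA in 28.5% and 26.6%, and the repeat CACACACA in 9.13% and 9.53%. The words were counted on both strands, with overlapping matches. The Pho word lay in 74.1% of windows with an active-mark window but no FruC peak and 64.3% of windows with a FruC peak. In the same groups the Spps word stood at 54.1% and 56.4%, above the members, and the Su(H) word at 25.3% and 26.6%, below the members. The excess of the Pho and Spps words over the pieces was therefore not particular to the members. Between members with and without an H3K9me3 peak, GCCAT lay in 70.7% (68.6 to 72.7) and 74.0% (72.9 to 75.1) and CACACACA in 7.48% (6.38 to 8.76) and 9.65% (8.93 to 10.4), intervals that do not overlap. GAGAG lay in 48.0% (45.7 to 50.2) and 44.6% (43.3 to 45.8), intervals that overlap by a small margin, and the median GC content was 43.1% and 44.0%.

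The name of these windows rests on lists rather than on levels, and no level is at hand to check it. Marker genes give only a description, since the rule used the H3K4me3 windows and so by itself keeps members away from starts with a listed window. The share of all genes with an H3K4me3 or H3K27ac window at a start site was not computed, so those counts have no background. For member windows the shares over all genes were 49.3% at 10 kb or more and 9.54% below. Of 10 neuroblast markers 9 had a listed H3K4me3 window at a start site and 1 (pnt) held member windows. The marker without a listed H3K4me3 window was ase, and a start without a listed window may still carry the mark. All 6 neuron markers had an H3K4me3 window at a start site, and 3 of them (Syt1, brp and para) also held member windows elsewhere in their bodies. Of 6 glial markers 4 had an H3K4me3 window and 0 held members. Of 6 muscle markers 1 had an H3K4me3 window and 4 held members (Act57B, Mhc, up and wupA). Fat body markers stood at 2 and 2 of 6 (H3K4me3 at Lsp1gamma and Lsp2, members at Fbp1 and Lsp1beta) and hemocyte markers at 0 and 1 of 4 (Hml). A listed H3K27ac window lay at a start site of 7 of 10 neuroblast, 2 of 6 neuron and 4 of 6 glial markers. It did so for 1 of 6 muscle, 1 of 6 fat body and 0 of 4 hemocyte markers. Brains hold several cell types, so the cells that carry the H3K27me3 of a window cannot be told. That no active-mark window was listed there does not show that these marks were missing.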

How the data were processed

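The authors profiled brat-null larval brains by CUT&RUN, with 2 replicates per antibody, 50 brains per transcription factor sample and 25 per histone sample (27 samples; the IgG sample was not used here). Reads were trimmed with cutadapt and aligned to BDGP6.32 with bowtie2 in local mode. Fragments under 120 bp were kept for transcription factors, and peaks were found on each replicate with MACS2. For FruC the study went on with peaks of a −log10 Q-value above 100 only and removed heterochromatin regions. Here every deposited FruC peak was used, a looser definition (median −log10 Q-value 20.0 in FruC-Myc replicate 1). H3K9me3 peaks were found by MACS2 in a like way, and the study merged those with a −log10 Q-value above 100 over 3000 bp. The deposited list is a single one that also holds weaker peaks (median 8.99), and which replicates it stands for is not given in the sources used here. In the deposited lists the fold enrichment at the summit is a ratio and the −log10 Q-value is as MACS2 wrote it for the authors. For H3K27me3, H3K4me3 and H3K27ac the authors ran diffReps (500 bp window) on fruC-null against control brains. Their tables also hold the direction, log2 fold change, adjusted p-value, gene name and annotation of each window. None of these columns was used. Columns of other samples numbered 0. The depth per sample is unknown.

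Start, end and length of windows and peaks were analysed with Python 3.11.15, numpy 2.4.6, pandas 2.3.3 and scipy 1.17.1. Overlap required 1 bp. Genes came from Ensembl release 115 of the same assembly, with transposable elements left out of gene bodies, and sequences from RefSeq. Window centres were assigned in the order promoter, termination site, exon, intron, intergenic. Domains joined windows over gaps of 3000 bp or less. Interval routines were tested on simulated intervals against direct enumeration. No test across windows was made, since windows are not replicates and the members were chosen by position.

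Genes named were the Hox genes, the 15 genes of 2000 bp or more with the largest covered share, the 10 with the most member bp, those of the 10 longest domains, up to 5 of each of 23 lists by covered share, and the gene nearest each printed stretch. Members and lists were chosen with earlier results of these data known. Genes named for their H3K9me3 share, and the printed stretches other than the Su(z)12 summit, were chosen after their values were seen. Sequence of chromosome arm 2R is not shown. Alternatives were a −log10 Q-value above 10 for FruC peaks, each replicate left out, a distance of 500 bp, large arms only, shares by length, stricter peaks, other promoter limits, other gaps and gene bodies with 1000 bp flanks. The ENCODE blacklist and signal tracks were not used here.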

Additional observations from a re-analysis of the deposited data

How the results depend on the processing

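The number of windows stayed within 1.5 times of 7850 under every alternative for the rule, from 6524 at 500 bp or more from active marks and FruC to 8060 without FruC-Myc replicate 1 (7850 to 8060 over the replicates left out). No paired analysis was possible because no value per sample was used and no result comes from a test. Shares for the 4 proteins rest on 1 to 9 windows, so that a few windows move them. With only FruC peaks above a −log10 Q-value of 10 excluding windows, they were 0.138% for Su(z)12, 0.163% for Caf-1, 0.0502% for Trl and 0.0251% for Su(H). Leaving out replicates of FruC gave 0.051% to 0.186% for Su(z)12, 0.115% to 0.211% for Caf-1, 0.0255% to 0.0744% for Trl and 0.0127% to 0.0248% for Su(H), the highest each time without FruC-Myc replicate 1, the largest list. Leaving out a replicate of the protein itself gave 0.0% to 0.051%, 0.0382% to 0.0764%, 0.0127% and 0.0% to 0.0127%. Peaks of both replicates, or with a −log10 Q-value above 10, gave 0.0% for each protein. Caf-1 stood at 0.0766% at 500 bp or more from active marks and FruC, at 0.0644% on the large arms and at 0.159% by length. H3K9me3 moved from 24.0% to 29.1% by length, 17.7% with at least 50% of a peak inside and 0.0% above a −log10 Q-value of 100. Promoter centres moved from 9.08% to 5.07% with 500 bp upstream and 16.3% for any bp of the window. With gaps of 10000 bp there were 2353 domains. Of the lists, 24 of 27 held members and 26 did with 1000 bp flanks, which took the tRNA count from 13 to 32, Enhancer of split and antimicrobial peptide genes from 1 to 2 each, and proneural and histone genes from 0 to 1 each. After seeing the data, the H3K9me3 share in domains of 10 or more windows was set against single windows under other settings: 42.8% and 17.8% as reported, 22.3% and 8.31% above a −log10 Q-value of 10, 7.45% and 2.86% above 20, 60.6% and 16.3% with gaps of 1000 bp, and 36.2% and 21.2% with gaps of 10000 bp. Causes of these shifts were not tested.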

Other observations

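The DIP genes, 11 immunoglobulin-domain receptors that pair with Dpr proteins at synapses, stood out among 105 families of at least 8 genes with a shared symbol stem, a scan made after the data were seen. All 11 held windows without active marks or FruC, with a mean of 25.0% of the gene body, the highest of the 105 families. The share was 44.8% for DIP-zeta, 42.6% for DIP-theta, 41.0% for DIP-eta, 33.9% for DIP-delta, 31.7% for DIP-iota, 20.9% for DIP-beta, 17.9% for DIP-alpha, 16.8% for DIP-epsilon, 15.2% for DIP-kappa, 6.17% for DIP-gamma and 4.37% for DIP-lambda. These windows made up 72.1% of the listed bp in DIP genes, against 26.2% over all protein-coding genes. DIP genes are long (median 33556 bp), and 49.3% of all genes of 10 kb or more held such a window.

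Their partners were covered less. Of 21 dpr genes 10 held windows (47.6%), with a mean of 2.44% of the gene body (dpr18 13.7%, dpr3 8.91%). Of 14 beat genes, another family of immunoglobulin-domain guidance receptors, 10 did (71.4%), with a mean of 5.46% (beat-Ia 15.8%, beat-IIb 14.9%). Both families are long (median 22277 bp for dpr and 36933 bp for beat genes). Of all genes of 10 kb or more, 49.3% held such a window, with a mean of 4.99%. The dpr count and the beat mean lay near these values. H3K9me3 peaks lay in 22 of 96 windows in DIP genes, 18 of them in DIP-lambda, in 7 of 32 in dpr genes and in 0 of 36 in beat genes. Among short genes, 6 of 11 Eig71E genes, a cluster induced by ecdysone on 3L, held windows (Eig71Ek 100%, Eig71Ej 67.5%), against 9.54% of genes under 10 kb. These genes are neighbours and shared only 3 windows, so they are not separate cases. No test of these differences was made, and the families were picked for their values.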
